A study of Canis lupus familiaris with 18 samples.

Results

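In MDCKI cells, a dog kidney epithelial line, 331 of the 32220 genes counted had lower mean levels under light than in the dark, both with and without a light-driven cyclase. They were chosen by differences between light and dark over 5 of the 6 groups of libraries, and by the largest mean of all 6. Counts were divided by a library's total over genes and multiplied by 1000000, which gives CPM (counts in 1000000 gene reads). For each line and light dose, L is log2 of the group mean CPM plus 1 under light over the group mean CPM plus 1 in the dark. A gene was taken if L was at most -1 at low light in both lines and at most -0.5 at high light in the bPAC line, with a largest group mean of at least 10 CPM. Of the 32220 genes, 5949 met the level limit. A run of consecutive gene IDs and 2 further IDs, 39 in all, were left out beforehand, and 0 of them would have met the other criteria. All 331 genes passed the filter on low counts, which kept 8530 genes for testing.

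The 18 libraries came from cells that express bPAC, 10 libraries, and from the parental MDCKI cells without it, 8 libraries. Each line was given no light, a low dose or a high dose for 2 hours, starting 16 hours after plating in medium with 0.5% serum. The bPAC line had 3 libraries in the dark, 4 at low light and 3 at high light, and the parental line had 3, 3 and 2. The labels give no light intensity and do not say whether the bPAC line is 1 clone, or whether libraries of a group came from separate cultures. The p-values below therefore speak to the variation among the libraries sequenced, part of which may be technical. Libraries were made from the 3' ends of transcripts, and 2638511 to 9610144 reads per library were assigned to genes. The files give gene IDs without names, so neither the markers of kidney epithelium nor the functions of these genes were checked.

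bPAC is a bacterial adenylyl cyclase with a flavin-binding domain, and blue light switches on its synthesis of cyclic AMP. Cyclic AMP frees the catalytic subunits of protein kinase A (PKA), which phosphorylate targets in the cytoplasm and, among transcription factors, CREB. The study addressed how PKA responds to different amounts of cyclic AMP. Parental cells carry no such cyclase, so their response to light is measured apart from the one that needs bPAC. The level of an mRNA in a bulk library reflects its synthesis and its decay, and fewer cells that express it cannot be told apart from less RNA per cell.

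The values of L chose the genes, so what follows on them is a description. At low light the median L was -1.86 in bPAC cells, within a range of -3.75 to -1.01. In parental cells it was -1.33, within -2.58 to -1.001. At high light the median was -1.69 in bPAC cells, within -5.33 to -0.51. Over all 8530 tested genes the medians were -0.08 in bPAC low light, -0.07 in parental low light and -0.24 in bPAC high light. Values at or below -2, which is a 4-fold difference, were reached by 129 genes in bPAC low light, 125 in bPAC high light and 19 in parental low light. L was lower in bPAC than in parental cells for 290 of the 331 genes at low light.

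The limits cut through a continuous distribution. The gene just inside the low light limit had an L of -1.01 in bPAC cells, and the nearest gene outside it had -0.998. In parental low light those values were -1.001 and -0.999, and in bPAC high light they were -0.51 and -0.48. At the level limit the nearest genes had 10.03 and 9.98 CPM in their highest group. A further 11 genes met the low light limits in both lines and the level limit but stayed above the high light limit in bPAC cells. Their L at high light lay between -0.48 and -0.11 in bPAC cells, all below 0. The set of genes stands on few libraries. With 1 library left out at a time the criteria gave 240 genes, without parental dark library 2, up to 434, without parental dark library 3. Of those 434, 328 were among the 331.

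Each library was also read on genes chosen without it. Its own values had no part in that choice, but the libraries it was set against did: the dark means were high, and the lit means low, in part by selection, so these values are a description. The bPAC low light libraries 1 to 4, set against the dark mean, then had a median L of -2.76, -1.33, -1.41 and -2.67. The bPAC high light libraries had -1.67, -2.82 and -1.14, and the parental low light libraries had -1.56, -1.29 and -1.14. All 10 of these lit libraries were below the dark mean by more than 1 on the log2 scale at the median gene. With a left-out bPAC dark library as the only baseline, low light stood at -1.53, -2.07 and -1.82 and high light at -1.41, -1.95 and -1.72. Among the left-out parental dark libraries, 1 and 2 gave -1.38 and -1.73 for low light and -0.86 and -1.18 for high light. Library 3 gave -0.59 and -0.06, so that high light was level with it at the median gene.

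The genes covered a wide range of abundance. Their largest group mean had a median of 45.6 CPM and a range of 10.03 to 10080 CPM. It lay between 10 and 20 CPM for 82 genes, between 20 and 100 for 161, between 100 and 1000 for 80, and above 1000 for 8. Together they held 3.92% to 5.31% of gene reads in bPAC dark libraries, 0.644% to 1.86% in bPAC low light and 0.737% to 2.28% in bPAC high light. In parental cells they held 2.77% to 4.97% in the dark, 1.36% to 1.75% at low light and 2.27% to 2.41% at high light. In each line, every lit library gave these genes a smaller share of its reads than every dark library.

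**Figure D1:**
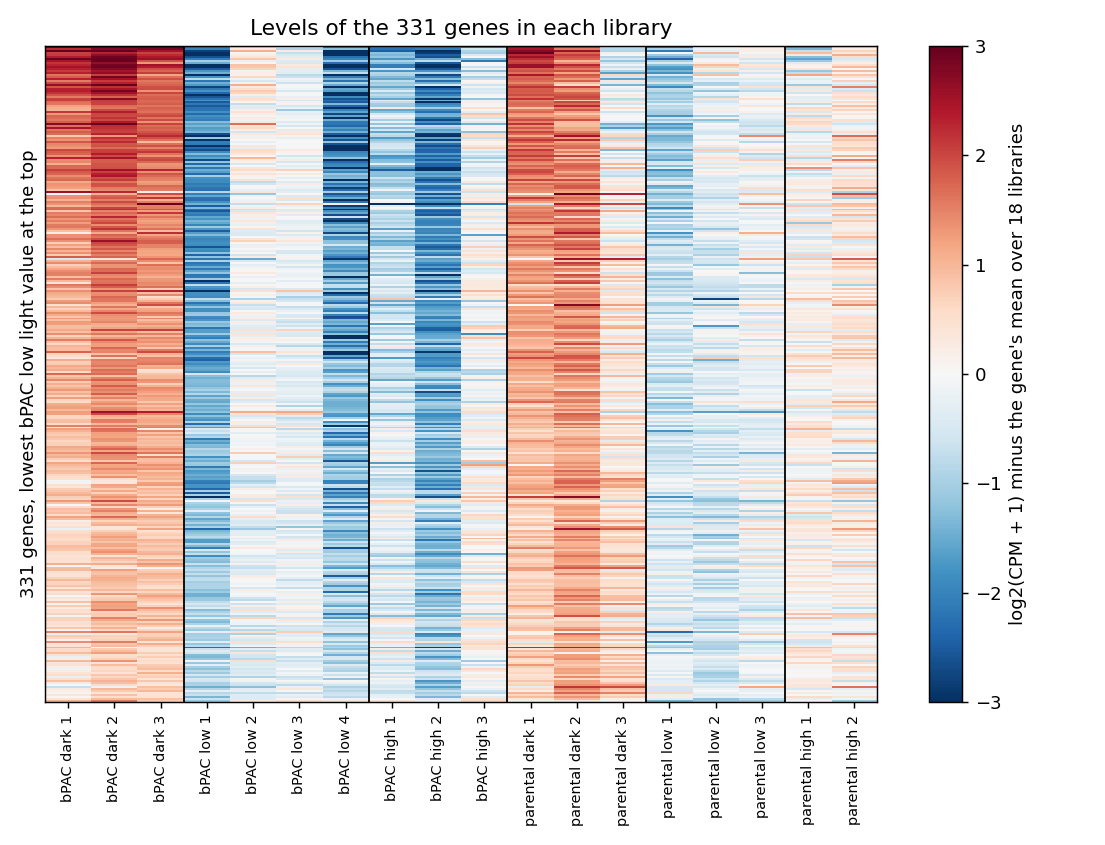
Levels of the 331 genes (rows) in 18 libraries (columns), as log2(CPM + 1) minus the gene's mean over all libraries, with red above and blue below that mean and rows in order of L in bPAC low light. Dark libraries are red, with parental dark library 3 the palest. Of the lit libraries, bPAC low light 1 and 4 and bPAC high light 2 are the bluest, and parental high light is pale.

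The median gene can be read library by library. In bPAC cells the median log2(CPM + 1) over the 331 genes was 5.08, 5.58 and 5.31 in the dark, 2.56, 3.91, 3.96 and 2.51 at low light, and 3.41, 2.44 and 4.01 at high light. In parental cells it was 5.21, 5.40 and 4.35 in the dark, 3.35, 3.52 and 3.77 at low light, and 4.11 and 4.36 at high light. All lit libraries lay below all dark ones, except that parental high light library 2 and parental dark library 3 were level at 4.36 and 4.35. As group means these medians were 5.32 ± 0.25 (SD, n = 3) in bPAC dark and 4.98 ± 0.56 (SD, n = 3) in parental dark. Gene by gene, 88 of the 331 genes had every lit library below every dark library, over both lines and doses, against 2.68% of all tested genes. Most of these libraries entered the criteria, so nothing is read from that difference.

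**Figure D2:**
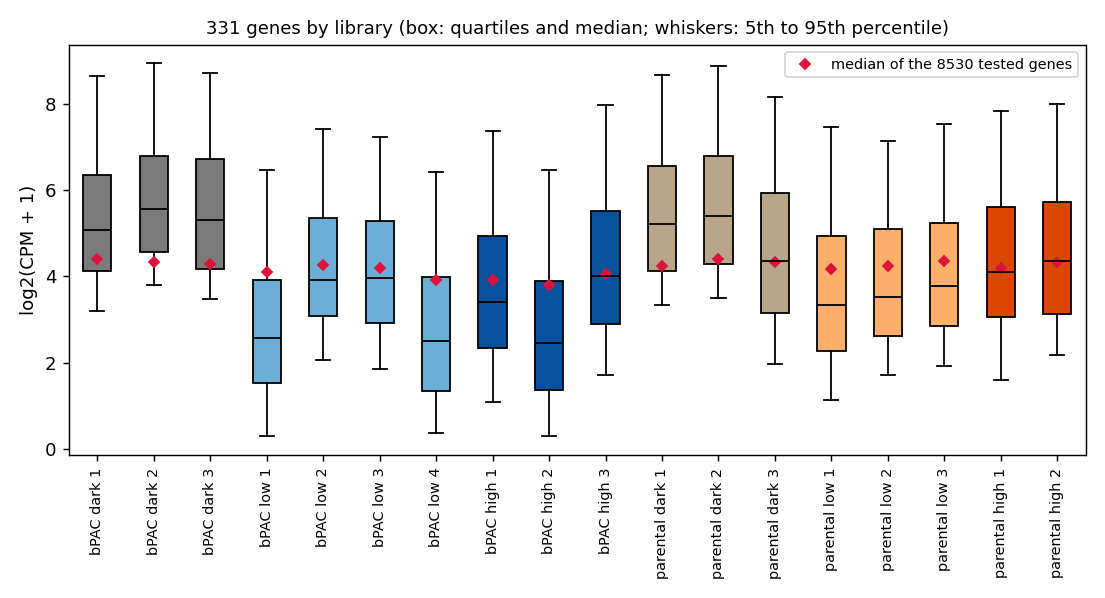
Distribution of log2(CPM + 1) of the 331 genes in each library, with boxes for the quartiles and median and whiskers from the 5th to the 95th percentile. Red diamonds mark the median of the 8530 tested genes. The medians of lit libraries sit lower than those of dark ones, except that parental high light 2 is level with parental dark 3, while the diamonds stay between 3.79 and 4.41.

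The most abundant of the genes was ENSCAFG00000015172. It had 7835, 11182 and 11225 CPM in bPAC dark libraries, 385, 3859, 3039.6 and 193 CPM at low light, and 2011, 472 and 3961 CPM at high light. In parental libraries it had 11031, 9382 and 3657 CPM in the dark, 1702, 3732 and 3104 CPM at low light, and 3996 and 3833 CPM at high light. Lit and dark libraries did not overlap in bPAC cells, whereas parental dark library 3 fell among the lit parental libraries. Relative to the dark mean its level was 5.39-fold lower in bPAC low light, 4.69-fold lower in bPAC high light, 2.82-fold lower in parental low light and 2.05-fold lower in parental high light.

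ENSCAFG00000016008, the second by reads, spread less between libraries. It had 2009, 2742 and 2245 CPM in bPAC dark libraries, 257, 842, 709 and 314 CPM at low light, and 981, 386 and 1334 CPM at high light. Parental libraries gave 2118, 2307 and 1353 CPM in the dark, 640.4, 608 and 774 CPM at low light, and 1108 and 1212 CPM at high light. Every lit library lay below every dark one, and in both lines the high light mean was between the low light mean and the dark mean.

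The size and the spread of the fall differed widely between genes. ENSCAFG00000011598, with the lowest L in both bPAC doses, had 45.3, 53.5 and 54.4 CPM in bPAC dark libraries, 0.234, 8.06, 2.90 and 0.293 CPM at low light, and 0.280, 0.222 and 0.379 CPM at high light. The high light levels rest on 2, 1 and 1 reads. In parental libraries it had 33.1, 23.3 and 2.18 CPM in the dark, 0.296, 4.75 and 6.23 CPM at low light, and 0.752 and 8.24 CPM at high light. In bPAC cells all lit libraries lay far below the dark ones, while in parental cells dark library 3 lay inside the lit range. ENSCAFG00000007738, next by L in bPAC low light, had -3.37 at low and -4.05 at high light in bPAC cells, and -1.80 and -1.96 in parental cells.

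ENSCAFG00000017270 had the lowest L in parental low light. It had 236, 396 and 166 CPM in bPAC dark, 3.27, 62.2, 34.0 and 1.90 CPM at low light, and 4.33, 2.22 and 14.8 CPM at high light. In parental libraries it had 196, 173 and 15.0 CPM in the dark, 5.92, 23.4 and 32.3 CPM at low light, and 17.3 and 46.9 CPM at high light. Again the bPAC groups were apart and parental dark library 3 lay among the lit libraries.

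ENSCAFG00000015450 fell in both lines, and at low light it fell more in parental than in bPAC cells. It had 25.6, 39.6 and 35.2 CPM in bPAC dark libraries, 0.701, 18.2, 21.2 and 2.93 CPM at low light, and 8.39, 1.55 and 30.7 CPM at high light. In parental libraries it had 65.9, 101 and 19.8 CPM in the dark, 3.55, 8.93 and 18.2 CPM at low light, and 16.5 and 22.5 CPM at high light. L was -1.55 in bPAC and -2.49 in parental cells at low light, and the bPAC high light libraries overlapped the dark ones. ENSCAFG00000000118, with the smallest spread within groups, had 398, 484 and 423 CPM in bPAC dark, 195, 214, 243 and 172 CPM at low light, and 319, 219 and 317 CPM at high light. It was lower in every lit library, with L of -1.08 at low and -0.61 at high light.

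The contrasts that chose the genes were fitted with the rest, and their calls are given as a description only. By edgeR's quasi-likelihood test with Benjamini-Hochberg adjustment at 0.05, 314 of the 331 genes passed as lower in bPAC low light, against 18.1% of all tested genes. In bPAC high light 201 passed, against 11.9%, and in parental low light 126 passed, against 4.68%. There were 76 genes that passed in all 3. The share of all tested genes that did so is not given here, so nothing is read from that number. The lit and dark libraries did not overlap for 318 genes in bPAC low light, 298 in bPAC high light and 237 in parental low light, against 25.8%, 33.1% and 17.8% of all tested genes. With 1 surrogate variable in the fit, an estimated axis of variation shared by many genes, 12 genes passed in bPAC low light, 153 in bPAC high light and 195 in parental low light, against 0.352%, 7.84% and 5.98% of all tested genes. ENSCAFG00000000118 and ENSCAFG00000016008 were among the 12. The surrogate variable was -0.14, -0.24 and -0.27 in bPAC dark libraries and -0.13 to 0.68 in lit bPAC libraries. In parental cells its lit and dark values overlapped. In bPAC cells it thus moved with light, so no fit with it can be read as free of other variation alone. With 1 library left out at a time, 252 to 318 genes passed in bPAC low light, while 10.9% to 19.7% of all tested genes did. In bPAC high light 78 to 239 genes passed, while 5.07% to 13.8% of all tested genes did. The numbers there were 120, 111 and 78 without bPAC dark library 2, bPAC high light library 1 or bPAC high light library 2. In parental low light 19 to 207 genes passed, while 0.637% to 6.77% of all tested genes did. The numbers were 76, 26 and 207 without parental dark library 1, 2 or 3, and 68, 19 and 81 without parental low light library 1, 2 or 3.

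The libraries of a group differed together for these genes. After group means were taken out, 1 axis held 72.0% of the variance of the 331 genes, against 29.8% for all tested genes, and 329 of the 331 lay on it with the same sign. The exceptions were ENSCAFG00000002628 and ENSCAFG00000007303. All tested genes lay on their own axis with both signs, 3973 and 4557. The 331 genes were chosen for a fall under light in most of these same libraries. The values set against all tested genes in this paragraph are therefore a description. The median correlation between pairs of genes within groups was 0.66, over deviations from the group means in the same 18 libraries, which differ in depth, against -0.00 for all tested genes. The median SD within groups was 0.67 on the log2 scale for the 331 genes, against 0.37 for all tested genes, and 300 of the 331 lay above 0.37. It ranged from 0.20 for ENSCAFG00000000118 to 1.92 for ENSCAFG00000013353.

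At low light, bPAC libraries 1 and 4 were both below libraries 2 and 3 for 297 of the 331 genes, against 2321 of the 8530 tested genes. ENSCAFG00000013353 had 0.935 and 0.439 CPM in libraries 1 and 4 and 49.2 and 32.2 CPM in libraries 2 and 3. ENSCAFG00000007303, by contrast, had 4.91, 5.30, 3.49 and 4.68 CPM in libraries 1 to 4, and ENSCAFG00000002628 had 92.5, 97.2, 97.6 and 105 CPM, so neither shared the split. Among the 3 bPAC high light libraries, library 2 was the lowest for 304 genes. Among the 3 parental dark libraries, library 3 was the lowest for 272. The shares of all tested genes are not given for these 2 counts, and the libraries entered the criteria, so nothing is read from them.

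A read class of the count tables moved with these levels between lit and dark libraries, and within some groups but not all. Reads that overlapped more than 1 gene numbered 0.0437 to 0.0605 per 100 gene reads in lit libraries and 0.0329 to 0.0411 in dark ones. They numbered 0.0581 and 0.0564 in bPAC low light libraries 1 and 4, and 0.0486 and 0.0475 in libraries 2 and 3. In bPAC high light library 2 they numbered 0.0584, against 0.0512 and 0.0437 in libraries 1 and 3. Parental low light library 1, with the lowest median of its group, had the fewest at 0.0528. In parental high light libraries 1 and 2 such reads numbered 0.0451 and 0.0515, and library 2 had the higher median. The 10 most abundant genes took 18.5% and 18.3% of gene reads in bPAC low light libraries 1 and 4, and 16.4% and 16.0% in libraries 2 and 3. In bPAC high light they took 18.8%, 21.2% and 17.2%, and in bPAC dark 14.5%, 15.2% and 14.2%. Parental lit and dark libraries were alike in this share. It was 13.3%, 13.6% and 13.9% in the dark, 13.3%, 13.8% and 13.7% at low light, and 14.3% and 13.5% at high light. The part of these properties in the levels was not tested.

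**Figure D3:**
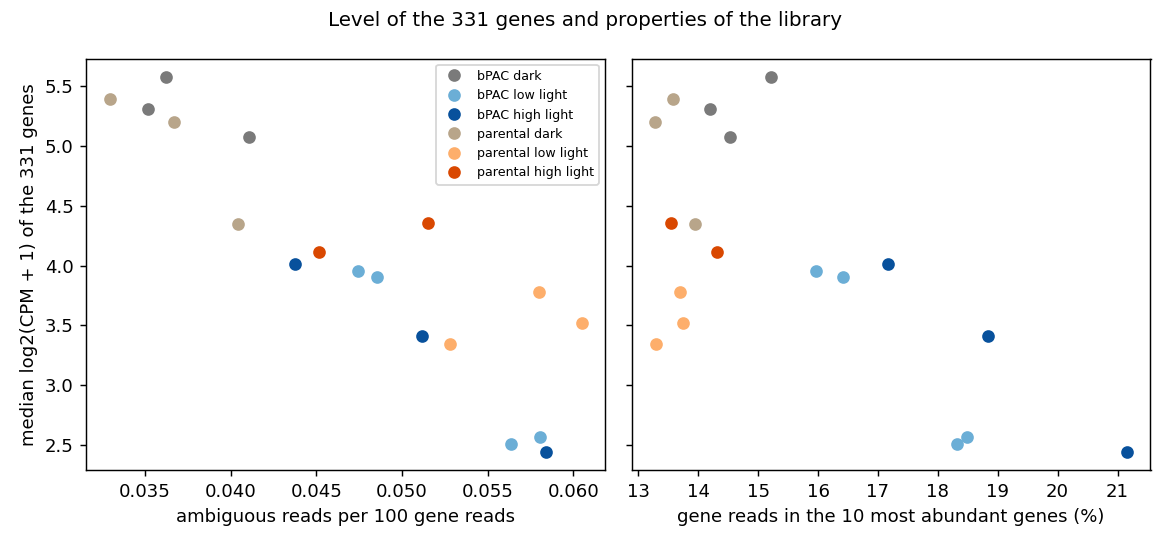
Median log2(CPM + 1) of the 331 genes in each library (vertical) against reads overlapping more than 1 gene per 100 gene reads (left) and the percentage of gene reads in the 10 most abundant genes (right), coloured by group. All dark libraries lie at 0.0411 or less on the left panel and all lit ones at 0.0437 or more, and the bPAC lit libraries stand at 16.0% or more on the right panel.

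High light in parental cells is the dose that no criterion on L used. Its dark libraries, however, are those of the criteria and were high in part by that choice. That dose counted only towards the largest group mean, and its mean was above the dark mean for 0 of the 331 genes. The median L was -0.85, against -0.08 for all tested genes, and all 331 genes had an L below 0, within -2.47 to -0.03. An L of -1 or less was reached by 116 genes. On the scale of edgeR's fit, which corrects for library composition, the median log2 fold change was -0.83, against -0.02 for all tested genes, and 328 of the 331 genes lay below 0. Of the 331 genes, 1 passed as lower by edgeR's quasi-likelihood test with Benjamini-Hochberg adjustment, against 0.0352% of all tested genes, and 0 as higher, against 0.141%. DESeq2 called 5 and limma-voom 0. The number lower was 53 with 1 surrogate variable in the fit, against 1.29% of all tested genes. It was 63 without the filter on low counts, against 0.577% of the 16648 genes then tested. At an unadjusted p under 0.05 there were 73 lower, against 6.93%, and 0 higher. The 2 high light libraries lay below all 3 dark libraries for 145 genes, against 18.1% of all tested genes.

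The gene that passed, ENSCAFG00000002628, had 200.3 and 149 CPM in parental high light libraries, against 335, 558 and 477 CPM in parental dark libraries. The groups did not overlap, and its log2 fold change was -1.30 (SE 0.26, adjusted p = 0.0493, edgeR quasi-likelihood test). It is 1 of the 2 genes that stood off the axis shared within groups. It stayed past the threshold on leaving out parental dark library 1, parental low light library 1, bPAC low light library 4 or bPAC high light library 2 or 3, and not on leaving out any of the other 13, with adjusted p up to 0.352 over the alternatives tried. The largest fitted decrease was that of ENSCAFG00000001371, which had 0.752 and 2.75 CPM in high light libraries, against 23.3, 16.6 and 2.66 CPM in dark libraries. With dark library 3 level with the lit ones, its log2 fold change of -2.99 did not pass (adjusted p = 0.282, edgeR quasi-likelihood test). ENSCAFG00000023549 came next, with a log2 fold change of -2.53 that did not pass (adjusted p = 0.398, edgeR quasi-likelihood test). At the other end, ENSCAFG00000028524 and ENSCAFG00000004096 had log2 fold changes of 0.07 and 0.06 and did not pass (adjusted p = 0.957 and 0.961, edgeR quasi-likelihood test).

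The group means of the doses were ordered differently in the lines. High light had a limit on L in bPAC cells and none in parental cells, so this order is a description. In parental cells the high light mean lay between the low light mean and the dark mean for 312 of the 331 genes and below the low light mean for 19. It was above the dark mean for 0 genes. In bPAC cells it lay between the low light and dark means for 190 genes, below the low light mean for 141 and above the dark mean for 0. These are means of CPM; on the scale corrected for library composition 224 of the 331 genes were higher at high than at low light in bPAC cells. For 23 genes the bPAC high light mean was less than 0.5 times the low light mean, and for 4 it was more than 2 times that mean. In parental cells those numbers were 0 and 46.

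In parental cells the median log2 fold change of high over low light was 0.59, against 0.02 for all tested genes, with 313 of the 331 genes above 0. Low light levels entered the criteria and were low in part by that choice. By edgeR's quasi-likelihood test with Benjamini-Hochberg adjustment 0 genes passed as higher, against 0.0117% of all tested genes, and 0 as lower, against 0%. DESeq2 and limma-voom also called 0. At an unadjusted p under 0.05 there were 28 higher, against 4.89%, and 0 lower, against 7.74%. The 2 high light libraries lay above all 3 low light libraries for 155 genes and below them for 0, against 16.2% and 18.2% of all tested genes.

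In bPAC cells the median log2 fold change of high over low light was 0.25, against 0.00 for all tested genes, with 107 of the 331 genes below 0. Both doses entered the criteria, with the looser limit at high light, so these values are a description. The median rested on which libraries were used. It was -0.26 without low light libraries 1 and 4, 1.10 without low light libraries 2 and 3, 0.57 without high light library 2 and -0.06 without high light library 3. With 1 surrogate variable in the fit it turned to -0.20, with 208 genes below 0. The edgeR fit called 8 genes higher and 0 lower, against 5.18% and 5.03% of all tested genes. With the surrogate variable it called 3 higher and 24 lower, against 5.17% and 4.36%, so the balance of calls turned round. At an unadjusted p under 0.05 the fit without it had 38 higher and 5 lower, against 12.9% and 13.4%. DESeq2 called 13 higher and 2 lower, and limma-voom 10 higher and 0 lower. High and low light libraries did not overlap for 2 genes that were higher and 3 that were lower, against 4.76% and 19.3% of all tested genes.

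One of the 8 was ENSCAFG00000008590, which had 8.81, 5.99 and 5.31 CPM in bPAC high light and 3.50, 5.09, 4.65 and 2.93 CPM in bPAC low light. The groups were close without overlapping, with a log2 fold change of 0.99 (SE 0.30). Of the 18 libraries, 13 cost it the call when left out. Over all tested genes, 189 to 899 were called in this comparison with 1 library left out. The counts below moved in the same refits, so nothing about the chosen genes in particular is read from them. Among the chosen genes, the number called was 0 without bPAC high light library 1, 22 without library 2 and 2 without library 3. It was 4, 14 and 1 without bPAC low light library 1, 2 or 4. It was 5 without bPAC dark library 1, 3 without bPAC dark library 2, 4 without parental dark library 2, 3 without parental low light library 3 and 5 without parental high light library 2.

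The lines were compared at each dose, which no criterion did, although libraries of both lines entered the criteria. In the dark the genes were slightly higher in bPAC cells, with a median log2 fold change of bPAC over parental of 0.23, against -0.01 for all tested genes, and 223 of 331 above 0. At low light the median was -0.23, against -0.03, with 230 below 0. At high light it was -0.59, against -0.02, with 282 below 0. High light had a limit on L in bPAC cells and none in parental cells, so the choice of genes favoured lower values in bPAC cells at that dose. The dark median fell to 0.02 without parental dark library 3. The low light median was 0.28 without bPAC low light libraries 1 and 4, -1.06 without libraries 2 and 3, and -0.08 without parental low light library 3. The high light median was below 0 on leaving out each library, and was -0.29 without bPAC high light library 2. With 1 surrogate variable the dark and low light medians changed sign, to -0.05 in the dark and 0.20 at low light, and the high light median was -0.14.

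Few genes differed singly between the lines. By edgeR's quasi-likelihood test with Benjamini-Hochberg adjustment, 3 genes in the dark were higher in bPAC cells and 3 were lower, against 3.61% and 2.92% of all tested genes. At low light 4 were higher and 5 lower, against 4.17% and 2.83%, and at high light 1 was higher and 10 lower, against 6.58% and 5.63%. Libraries of the lines did not overlap for 56 higher and 14 lower genes in the dark, against 14.2% and 13.7% of all tested genes. At low light these numbers were 4 and 25, against 8.16% and 12%, and at high light 3 and 139, against 12.3% and 34.3%. The share of the 331 genes that passed edgeR's test was under that of all tested genes, in both directions and at every dose. Without overlap, their share was above that of all tested genes for higher genes in the dark and lower genes at high light. The median SD within groups was 0.67 for the 331 genes and 0.37 for all tested genes, so fewer calls do not show that the lines were more alike.

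The numbers of calls moved with single libraries. In the dark they were 12 without parental dark library 1, 3 without parental dark library 3 and 3 without bPAC dark library 2. At low light they were 3 without any 1 of the parental low light libraries and 5 without bPAC low light library 2. At high light they were 5 and 3 without parental high light library 1 or 2, 4, 3 and 27 without bPAC high light library 1, 2 or 3, and 17 without bPAC low light library 4. Over all tested genes, with 1 library left out, 224 to 720 were called in the dark and 298 to 641 at low light. At high light 290 to 1212 of all tested genes were called.

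ENSCAFG00000013589 was higher in bPAC cells at every dose. It had 146, 229 and 131 CPM in bPAC dark libraries, against 72.5, 72.8 and 31.0 CPM in parental dark libraries. At low light it had 57.0, 85.9, 51.1 and 35.8 CPM in bPAC cells, against 25.1, 23.9 and 21.9 CPM in parental cells. At high light it had 98.3, 73.2 and 103 CPM in bPAC cells, against 36.4 and 25.5 CPM in parental cells. The lines did not overlap at any dose. The log2 fold changes of bPAC over parental were 1.54 in the dark (SE 0.32, adjusted p = 0.00665), 1.35 at low light (SE 0.31, adjusted p = 0.0120) and 1.83 at high light (SE 0.38, adjusted p = 0.00419), by edgeR's quasi-likelihood test. The call was lost at low light without parental low light library 2 or 3, with adjusted p up to 0.0557, and at high light without parental high light library 2, with adjusted p = 0.0904.

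ENSCAFG00000011117 was lower in bPAC cells at every dose. It had 14.0, 29.6 and 39.8 CPM in bPAC dark libraries, against 140.4, 156 and 114 CPM in parental dark libraries. At low light it had 5.14, 10.2, 16.3 and 15.4 CPM in bPAC cells, against 68.0, 59.6 and 45.7 CPM in parental cells. At high light it had 10.5, 3.33 and 21.6 CPM in bPAC cells, against 57.9 and 46.9 CPM in parental cells. The lines stood far apart at each dose, while the relative fall under light was alike in size, with L of -1.18 in bPAC and -1.23 in parental cells at low light, and -1.17 in bPAC and -1.37 in parental cells at high light. The log2 fold changes of bPAC over parental were -2.27 (SE 0.48, adjusted p = 0.0105), -2.21 (SE 0.45, adjusted p = 0.00689) and -1.98 (SE 0.54, adjusted p = 0.0253) from dark to low to high light, by edgeR's quasi-likelihood test. ENSCAFG00000002628 was also lower in bPAC cells in the dark, with 172, 212 and 216 CPM against 335, 558 and 477 CPM in parental cells and no overlap (log2 fold change -1.16, SE 0.23, adjusted p = 0.00397, edgeR quasi-likelihood test).

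ENSCAFG00000004542 was higher in bPAC cells, with 12.8, 13.9 and 10.4 CPM in bPAC dark libraries, against 4.27, 4.53 and 2.90 CPM in parental dark libraries. The dark groups did not overlap, and the log2 fold change was 1.67 (SE 0.47, adjusted p = 0.0389, edgeR quasi-likelihood test), but leaving out any 1 of the 6 dark libraries lost the call, with adjusted p up to 0.155. ENSCAFG00000003191 was lower in bPAC cells at low light, with 1.87, 2.33, 1.45 and 1.61 CPM, against 6.51, 3.23 and 5.08 CPM in parental cells. Those groups did not overlap, and the log2 fold change of -1.32 passed (adjusted p = 0.0428, edgeR quasi-likelihood test), but the call was lost on leaving out any of 13 libraries.

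Of the 10 genes that were lower in bPAC cells at high light, those with the largest differences without overlap were ENSCAFG00000012195 and ENSCAFG00000007415. ENSCAFG00000007415 had 1.82, 1.11 and 2.65 CPM in bPAC high light, against 10.3 and 13.5 CPM in parental high light. At low light it had 2.34, 7.85, 4.65 and 1.46 CPM in bPAC cells, against 5.92, 6.08 and 6.92 CPM in parental cells, and in the dark 18.5, 23.5 and 15.9 CPM, against 17.0, 22.1 and 9.43 CPM. The lines overlapped in the dark and at low light and not at high light, where the log2 fold change of bPAC over parental was -2.44 (SE 0.51, adjusted p = 0.00439, edgeR quasi-likelihood test). ENSCAFG00000012195 had 4, 0 and 6 reads in the bPAC high light libraries, or up to 2.27 CPM, against 6.52 and 10.5 CPM in parental high light. Its fitted log2 fold change of -3.20 passed (adjusted p = 0.0422, edgeR quasi-likelihood test), but the call was lost on leaving out any of 10 libraries.

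**Figure D4:**
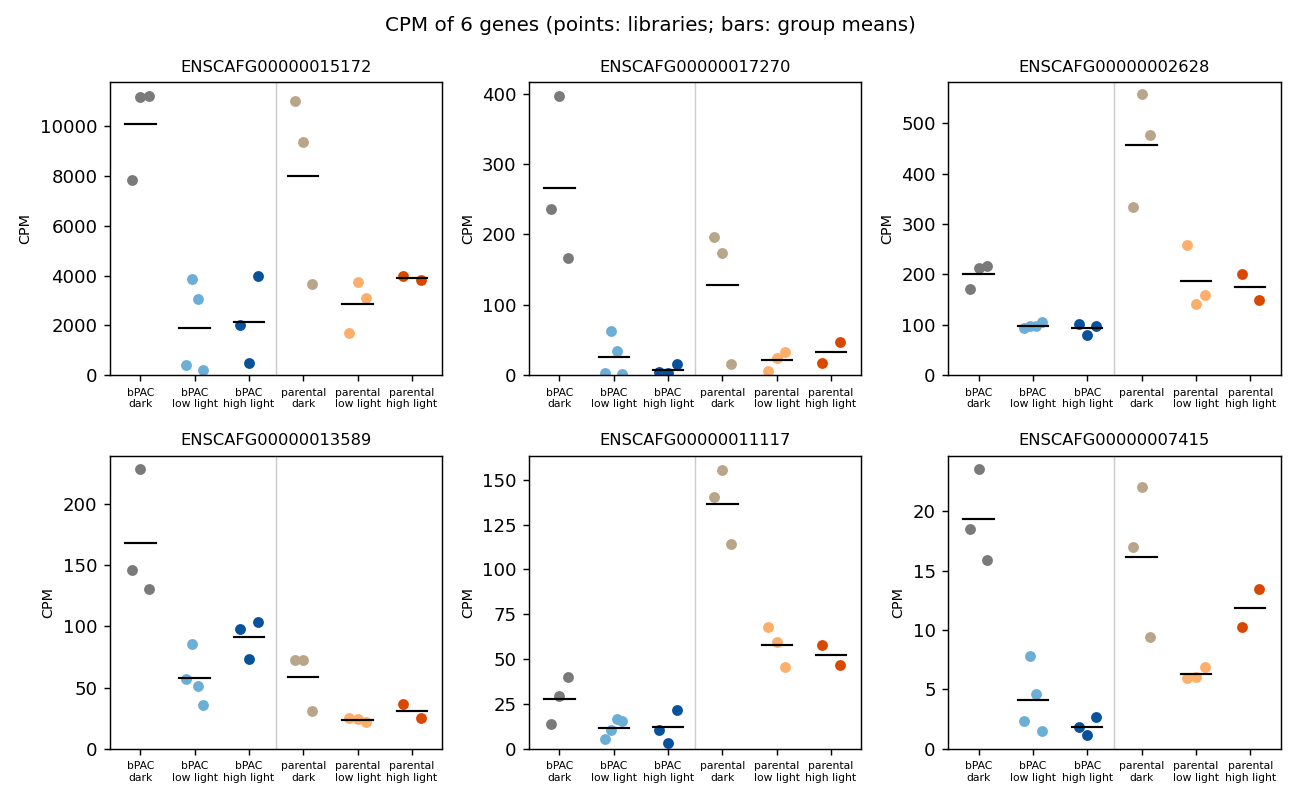
CPM of 6 of the genes, with 1 point per library and a bar at each group mean, for bPAC cells on the left and parental cells on the right of each panel in order of dose. ENSCAFG00000013589 is higher and ENSCAFG00000011117 lower in bPAC cells at every dose, and ENSCAFG00000007415 separates the lines at high light.

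Whether the fall under light differed between the lines was tested as an interaction, the log2 fold change against dark in bPAC cells minus that in parental cells. At low light the median over the 331 genes was -0.47, against 0.02 for all tested genes, with 285 below 0. By edgeR's quasi-likelihood test with Benjamini-Hochberg adjustment 0 genes passed, against 0.0234% of all tested genes higher and 0.0117% lower. At an unadjusted p under 0.05 there were also 0, against 3.27% higher and 2.67% lower, and DESeq2 and limma-voom called 0. The median was 0.05 without bPAC low light libraries 1 and 4 and -1.26 without libraries 2 and 3, so its sign and size rest on those libraries. At high light the median was -0.74, against 0.05 for all tested genes, with 290 below 0. High light had a limit on L in bPAC cells and none in parental cells, so the choice of genes favoured values below 0 there. There 0 genes passed in edgeR's test, against 0.106% higher and 0.399% lower, while DESeq2 called 3 and limma-voom 0. At an unadjusted p under 0.05 there were 35 lower and 0 higher, against 7.21% and 6.69%. The number that passed was 1 without bPAC low light library 1 or 4 and 2 without library 2. Over all tested genes it was 17 to 84 with 1 library left out. With 1 surrogate variable the medians were 0.27 at low light and -0.09 at high light.

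**Figure D5:**
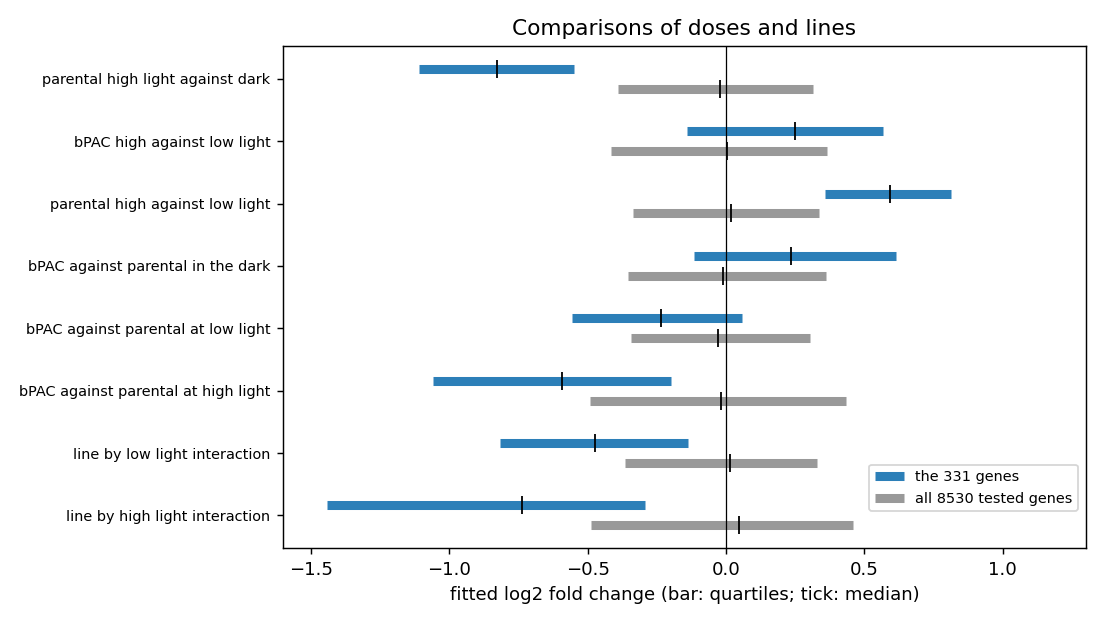
Fitted log2 fold changes of the 331 genes (blue) and of all 8530 tested genes (grey) in 8 comparisons, with bars from the first to the last quartile limit and ticks at the median. An interaction is the light response of bPAC cells minus that of parental cells. The median of the 331 genes stands at -0.83 in parental high light against dark and at 0.59 in parental high against low light, and the grey medians lie between -0.03 and 0.05.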

How the data were processed

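Total RNA was isolated with the SPLIT kit and turned into QuantSeq 3' FWD libraries (both Lexogen), per the labels' protocols, so counts do not grow with transcript length. The authors deposited whole-number read counts per gene, 1 table per library, not normalised. The submitters' processing notes name the CanFam3.1 genome. Aligner, counter and gene annotation are not stated in any source used here. Rows that name no gene held 66.1% to 70.6% of the reads in a table and were left out.

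Groups came from the labels. The 331 genes and the comparisons were chosen with earlier results of these data known. Calls come from edgeR 4.0.16 (R 4.3.3): filterByExpr at a minimum count of 10, TMM scaling, glmQLFit with robust estimation and glmQLFTest in 1 model of 6 groups, adjusted by Benjamini-Hochberg over 8530 genes at 0.05. Standard errors are the fitted log2 fold change, without its sign, over the square root of F. Genes in the text were named by rule: the 2 with most reads, the 2 lowest in each contrast of the criteria, up to 2 per direction past the threshold without overlap in each tested comparison, and the extremes of parental high light. ENSCAFG00000000118, ENSCAFG00000007303 and ENSCAFG00000013353 were added after their values were seen. Alternatives used DESeq2 1.42.0, limma 3.58.1 and sva 3.50.0, and leaving out pairs of bPAC low light libraries was chosen after seeing the data. The fit was tested on simulated counts that drew each gene independently. That test does not speak to calls under the variation that the 331 genes share within groups.

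Of the 32220 gene IDs, 0 matched the reference table of another assembly, so the planned lists of pathway genes and cell type markers were not run and no sequences are shown. Within groups, 19 pairs of libraries differed by more than sampling noise, with chi-square per degree of freedom of 9.41 to 72.7. The labels give no batch.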

Additional observations from a re-analysis of the deposited data

How the results depend on the processing

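The criteria gave 196 genes with a pseudocount of 5 in place of 1, and 344 with a pseudocount of 0.5. Both scalings for library composition made the set smaller, to 254 genes with TMM and 276 with DESeq2's size factors. Group medians in place of means gave 339. Leaving out 1 library at a time gave 240 to 434. CPM without composition scaling lowered the median of all tested genes by 0.28 in bPAC high light relative to TMM. With TMM the medians of L of the 331 genes were -1.77 in bPAC low light, -1.43 in bPAC high light and -1.27 in parental low light.

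Counts of the 331 genes called moved by over 1.5 times as follows, for parental high light against dark (1), bPAC high against low light (8), the lines in the dark (6), at low light (9) and at high light (11), and the interaction at high light (0). Without a filter they were 63, 48, 51, 40, 88 and 63, and 11 in parental high against low light and 6 in the interaction at low light, where 0 were called. With 1 surrogate variable they were 53 for parental high light, 27 for the bPAC doses (3 higher, 24 lower), 18 for the lines in the dark and 18 at high light. Fitting the compared groups alone gave 0, 1, 10, 2, 17 and 2. DESeq2 gave 5, 15, 10, 15, 22 and 3. DESeq2's size factors, a filter at 5 CPM and limma-voom each gave 0 for parental high light. Without bPAC low light libraries 1 and 4 the counts were 4 for parental high light, 4 for the bPAC doses (all lower), 12 for the lines in the dark, 25 at high light and 5 for the interaction at high light. Without libraries 2 and 3 they were 0, 87, 71 for the lines at low light, 23 at high light and 3. The cause was not tested. Shares of all tested genes are not given beside the counts above or the ranges with 1 library left out below. Nothing about the 331 genes in particular is therefore read from those counts and ranges. The fit without a filter tested 16648 genes, so its counts cannot be set against shares from the fit with the filter. Leaving out 1 library gave 0 to 1, 0 to 22, 3 to 12, 3 to 11, 3 to 27 and 0 to 2, and 0 for the comparisons with no calls. Over all tested genes, the 15 calls for parental high light became 2 to 37 with 1 library left out and 266 with the surrogate variable.

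ENSCAFG00000028524 in parental high light turned to -0.051 with the surrogate variable, -0.22 without parental dark library 1 and -0.014 without parental high light library 1, and was at most 0.24 with 1 library left out. ENSCAFG00000004096 turned to -0.0314 with the surrogate variable, -0.08 without parental dark library 1 and -0.17 without parental dark library 3, and was at most 0.40 with 1 library left out. No paired analysis was possible because the labels carry no replicate numbers shared between groups, and the library numbers used here only name the libraries of a group in the order of deposit. Depth limits the genes with the lowest levels under light, which a lit library can hold as 0 to a few reads.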

Other observations

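The 11 genes kept out by the limit in bPAC high light alone had a median L of -1.10 in bPAC low light and -0.42 in bPAC high light. In parental cells their median L was -1.13 at low light and -0.44 at high light, a dose that no criterion on L used. Their high light values were thus alike in the lines at the median, whereas the 331 genes had a median L of -1.69 in bPAC and -0.85 in parental high light. The criterion at bPAC high light separates these sets, so this difference was not tested.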
